A study of Mus musculus with 9 samples.

Results

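The genes described here are the liver-secreted hormones Fgf21, Angptl4, Ahsg, Fetub, Inhbe and Lect2, and the receptor genes Klb, Fgfr4 and Lepr. They were chosen by name, and their levels were read from 1 probe set each, so that 9 genes of the 19938 measured are covered. Liver RNA of 9 mice was hybridised to Affymetrix gene arrays, 1 array per animal, with 3 animals in each of 3 groups. The first group was wild-type C57BL/6J, the second carried the Clock-D19 mutation, and the third, called rescue, was Clock-D19 as well but was given 35 µg of pLIVE plasmid expressing wild-type Clock through the tail vein at week 10. All animals, controls included, began a diet with 45% fat at 10 weeks of age and were killed 5 weeks later, 10 h after lights on in a cycle of 12 h light and 12 h dark. Whether animals outside the rescue group were injected is not described in the labels, nor is the strain background of the mutants.

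A hepatokine is a protein hormone that the liver releases into blood. FGF21 is released under nutrient stress and signals through FGF receptors that need the co-receptor beta-Klotho, the product of Klb. FGFR4, the main FGF receptor of hepatocytes, pairs with the same co-receptor to answer the gut hormone FGF15, which lowers bile acid synthesis. The leptin receptor, encoded by Lepr, carries the signal of the adipocyte hormone leptin through the kinase JAK2, and the liver is also a source of its soluble form, which binds leptin in plasma. CLOCK acts on genes by binding E-boxes together with BMAL1, which is why the start sites of these genes are of interest in Clock mutants.

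Promoter windows of RefSeq (assembly GRCm38.p6, 250 bases before to 50 after a start site) were held for 8 of the 9 genes, in 10 windows; Angptl4 had none. They were searched on both strands for the E-box CACGTG, the D-box TTATGTAA, the core TAGGTCA of the REV-ERB and ROR element, the ATF4 site TTGCATCA, and a pair of AGGTCA half-sites with 1 base between them. The motifs do not overlap in the windows shown. Only 2 of the 10 windows held a match. The sequences below are shown because the Fgf21 and Inhbe windows are those with a match, and the Lepr window belongs to the gene that differed between groups. They run 5′ to 3′ on the gene's strand, with matches in capitals. Fgf21 lies on the minus strand at chr7:45615441-45615740, Inhbe on the minus strand at chr10:127351799-127352098, and the Lepr window on the plus strand at chr4:101717656-101717955.
Fgf21: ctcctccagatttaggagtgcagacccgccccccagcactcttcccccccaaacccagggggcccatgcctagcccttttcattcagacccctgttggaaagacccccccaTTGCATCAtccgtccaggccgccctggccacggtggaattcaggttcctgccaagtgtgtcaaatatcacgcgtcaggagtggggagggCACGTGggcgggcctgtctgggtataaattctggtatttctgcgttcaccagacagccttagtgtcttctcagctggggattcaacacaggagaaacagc
Inhbe: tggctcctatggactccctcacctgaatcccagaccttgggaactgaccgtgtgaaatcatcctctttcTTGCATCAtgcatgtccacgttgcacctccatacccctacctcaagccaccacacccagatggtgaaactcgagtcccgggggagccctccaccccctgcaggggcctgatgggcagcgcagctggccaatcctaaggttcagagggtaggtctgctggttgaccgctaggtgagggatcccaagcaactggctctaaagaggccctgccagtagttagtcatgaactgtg
Lepr: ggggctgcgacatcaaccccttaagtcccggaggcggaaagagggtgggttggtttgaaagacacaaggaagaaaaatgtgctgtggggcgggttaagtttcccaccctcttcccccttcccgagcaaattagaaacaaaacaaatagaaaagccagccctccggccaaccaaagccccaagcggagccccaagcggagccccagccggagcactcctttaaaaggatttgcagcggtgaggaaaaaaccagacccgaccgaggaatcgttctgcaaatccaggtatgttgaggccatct

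The Fgf21 window held an E-box at position -50 and an ATF4 site at position -139, counted from the start site to the motif's leftmost base. The Inhbe window held an ATF4 site at position -181. Of all 32851 windows of this length, 7.15% held the E-box, 0.895% the ATF4 site, 0.938% the D-box, 2.61% the REV-ERB and ROR core and 0.0396% the paired half-sites. Neither of the 2 Lepr windows held any of the 5 motifs, which says only that these letters are not in those 300 bases. A match is a description of the letters and not a bound site.

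Values are log2 levels, normalised by the authors with RMA, and a difference of 1 is 2-fold. Differences carry the model's SE, and p-values come from limma with Benjamini-Hochberg adjustment over all 19938 genes; a gene was called when its adjusted p was under 0.05. Clock itself ranged from 9.24 to 9.97 in wild type, from 9.89 to 10.88 in the mutant and from 9.41 to 10.33 in rescue. It was called higher in the mutant than in wild type, by 0.94 (limma adjusted p = 0.0266). In rescue it was 0.66 lower than in the mutant, which was not called (limma adjusted p = 0.168). Its probe set does not separate mutant from plasmid transcript, so it does not check the labels. As a scale for dim genes, the median of 1027 olfactory receptor genes was 4.14 to 4.24 in wild type, 4.25 to 4.33 in the mutant and 4.15 to 4.33 in rescue. Probe sets differ in brightness, so levels are compared between groups and not between genes.

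Among the 9 genes, only Lepr was called. It fell in the mutant livers and rose in the rescue livers relative to the mutant, and no gene of the 9 was called between rescue and wild type (limma). Of all genes, 15.4% were called between mutant and wild type (6.37% higher, 9.02% lower). The share was 3.81% between rescue and mutant (2.61% higher, 1.2% lower) and 2.28% between rescue and wild type (0.928% higher, 1.35% lower). With median centring of the arrays the first comparison had 610 genes higher and 2272 lower, against 1270 and 1798 as fitted, and the second 780 and 126, against 520 and 239. A share of 1 in 9 is therefore near the background in mutant against wild type. The median difference of the 9 genes was -0.03 in mutant against wild type, where that of all genes was 0.07, and 0.00 in rescue against mutant, where that of all genes was -0.05. At an unadjusted p under 0.05 there were 4, 3 and 1 of the 9 genes in the 3 comparisons in that order. Such p-values were frequent among all 19938 genes (limma). In mutant against wild type an unadjusted p of 0.0493 had rank 6085, counted from the smallest. In rescue against mutant a p of 0.0481 had rank 4098, and in rescue against wild type a p of 0.0589 had rank 3102. Whether the 9 genes exceed this background was not tested. Both comparisons with the mutant use the same 3 mutant arrays, and both with the wild type the same 3 wild-type arrays.

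**Figure D1:**
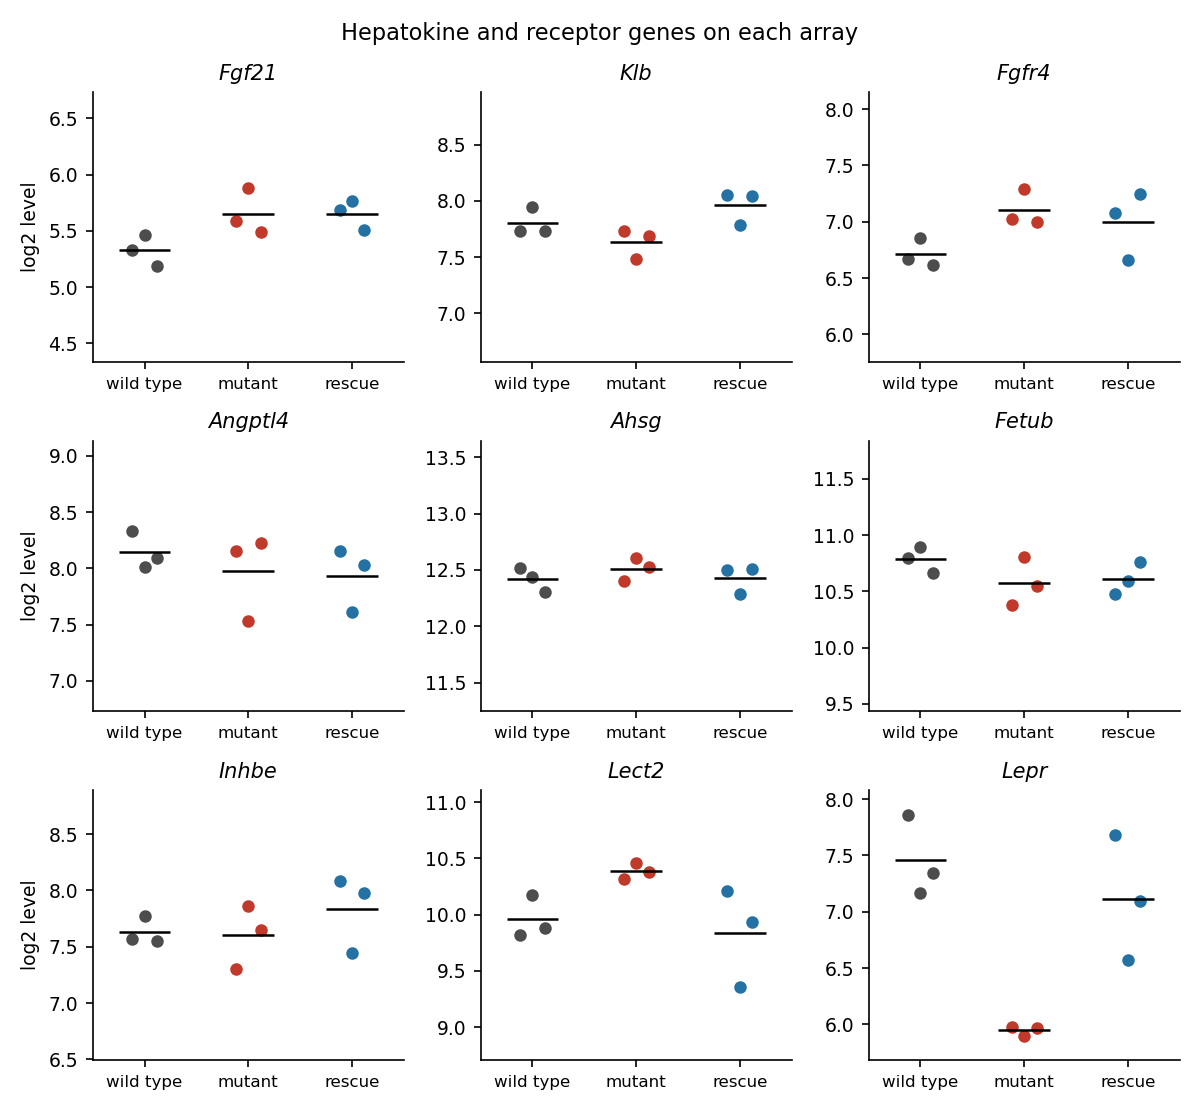
Log2 level of each of the 9 genes on each array (points, 3 per group in the order of replicate number) with the group mean (line); every panel spans the same number of log2 units. Lepr lies between 5.90 and 5.97 on the mutant arrays and at 6.57 or above on the other 6.

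Lepr had log2 levels of 7.86, 7.16 and 7.35 in wild type, 5.97, 5.90 and 5.96 in the mutant, and 7.68, 6.57 and 7.09 in rescue. All 3 mutant arrays lay below all others, and the rescue arrays overlapped those of wild type. The fall in mutant against wild type was -1.51 ± 0.22 (SE), or 2.85-fold (limma adjusted p = 5.62e-04, n = 3 per group); 0.110% of all genes had a larger fall. The rise in rescue against mutant was 1.17 ± 0.22, or 2.25-fold (adjusted p = 0.0138, limma). Rescue against wild type gave -0.34 ± 0.22 (95% interval -0.82 to 0.13, limma adjusted p = 0.554); the interval includes 0. This difference was -0.07 without rescue replicate 2, -0.14 without wild-type replicate 1 and -0.63 without rescue replicate 1 (adjusted p 0.943, 0.879 and 0.143, limma), so its size rests on single arrays. The SD was 0.36 in wild type, 0.04 in the mutant and 0.56 in rescue. The model pools these spreads, so the SE was 0.22 in each comparison although the groups differed in spread. The calls were kept under all alternatives, including each array left out in turn, with an adjusted p of at most 0.00417 for the fall and 0.0497 for the rise. No alternative gave Lepr a separate spread for each group. Whether the calls and intervals hold without pooling was not tested. The array gives 1 value for Lepr, so its membrane and soluble forms cannot be told apart.

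The endothelial and Kupffer cell marker lists were lower in mutant than in wild type, as Lepr was. In bulk liver, fewer cells of a type and less RNA per cell cannot be told apart. Of 21 endothelial markers, 11 fell and none rose in mutant against wild type, and their mean log2 level was 7.61 to 7.73 in wild type, 7.21 to 7.24 in the mutant and 7.34 to 7.59 in rescue. The log2 of their summed level ranged from 12.22 to 12.37, from 11.74 to 11.77 and from 11.91 to 12.18 in the same order. The median difference of these markers was -0.45 in mutant against wild type and 0.29 in rescue against mutant, where 4 rose. Of 19 Kupffer cell markers 10 fell in mutant against wild type, and in rescue against mutant 1 rose and 1 fell. Their mean was 7.15 to 7.60 in wild type, 6.70 to 6.76 in the mutant and 6.75 to 6.98 in rescue. In rescue against wild type 7 Kupffer cell markers and 2 endothelial markers fell, and none of either list rose. Both means were lower on all rescue arrays than on all wild-type arrays. The Lepr mean was also lower in rescue than in wild type, by 0.34, with overlap of the arrays. Within rescue, replicate 1 was highest and replicate 2 lowest for Lepr and for both lists. Of 15 hepatocyte markers outside the 9 genes 1 rose and none fell in mutant against wild type, and the mean over that list with Ahsg was 11.97 to 12.17 in wild type, 12.07 to 12.21 in the mutant and 11.94 to 12.19 in rescue. The summed Kupffer cell level (log2) was 12.33 to 12.77, 11.34 to 11.46 and 11.59 to 11.91 in wild type, mutant and rescue. Of 19 stellate cell markers 1 rose and 4 fell in mutant against wild type, and 3 rose in rescue against mutant. Their summed level (log2) was 12.18 to 12.30 in wild type, 11.93 to 11.98 in the mutant and 12.13 to 12.25 in rescue, so that the mutant lay apart, while their mean log2 level overlapped between mutant and wild type.

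Other marker lists gave few calls in mutant against wild type: 1 of 14 lymphocyte markers rose and 1 fell, 1 of 8 bile duct markers fell, and 1 of 11 exocrine pancreas markers rose. None of 13 neutrophil, 7 adipocyte or 2 red cell markers was called there by limma, with 2, 1 and 1 of them at an unadjusted p under 0.05. The mean log2 level of the red cell list was 7.05 to 7.09 in wild type, 7.21 to 7.27 in the mutant and 6.99 to 7.12 in rescue, and that of the exocrine pancreas list 5.31 to 5.41, 5.52 to 5.63 and 5.37 to 5.56. Both lists were higher on all mutant arrays than on all wild-type arrays, and so were the medians of the olfactory receptor genes and of all genes. Of the 11 exocrine pancreas markers only 3 were outside the dimmest 40% of genes. Only 2 of 9 listed red cell markers were measured. The part of any of these cells in the Lepr result was not tested.

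Genomic span also moved with the calls. With genes ranked by span in 5 equal groups, Lepr, at 98216 bases, was in the group of the longest genes, where 17% fell and 3.68% rose in mutant against wild type; in the group of the shortest, which holds Fgf21 and Inhbe, 1.69% fell and 8.31% rose. With this trend removed from each array the Lepr difference was -1.44 in mutant against wild type and 1.13 in rescue against mutant.

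**Figure D2:**
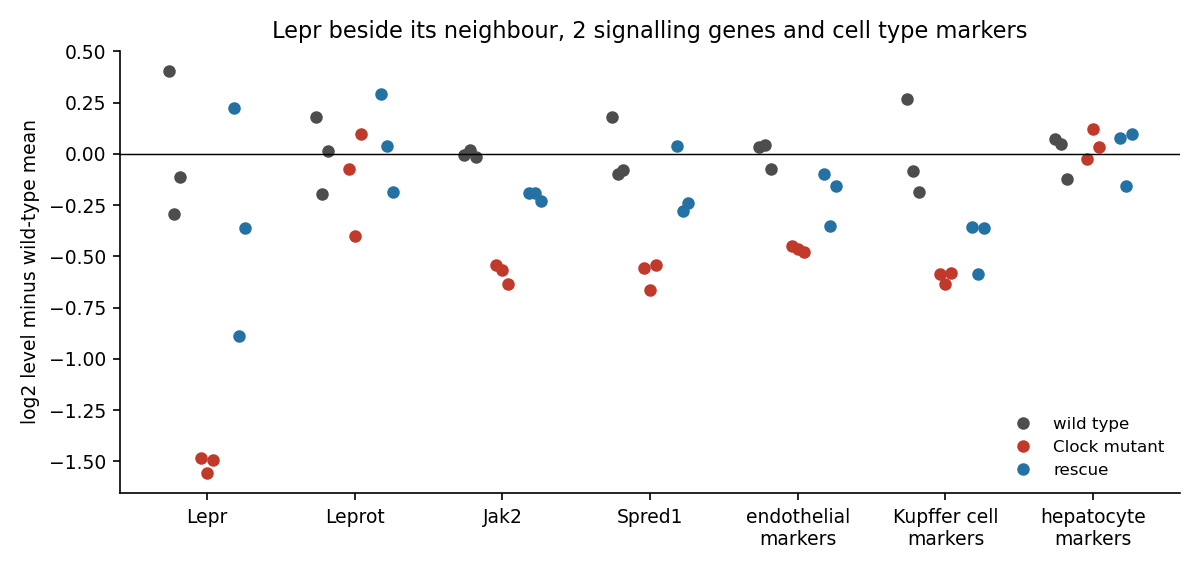
Log2 level on each array (points) minus the wild-type mean, for Lepr, Leprot, Jak2, Spred1 and the means of the endothelial, Kupffer cell and hepatocyte marker lists. The mutant arrays are lowest for Lepr, Jak2, Spred1 and the endothelial list, and overlap the others for Leprot. Spred1 is the gene with the highest correlation with Lepr over the same arrays, so its likeness to Lepr is not a separate result.

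Leprot, the tested gene next to Lepr in the reference gene order, encodes a protein that limits leptin receptor at the cell surface. Its log2 levels were 7.16, 6.78 and 6.99 in wild type, 6.90, 6.58 and 7.07 in the mutant and 7.27, 7.02 and 6.79 in rescue. The groups overlapped, and the difference in mutant against wild type was -0.12 ± 0.15 (limma adjusted p = 0.604). Over the 9 arrays the genes most like Lepr were Spred1, a feedback inhibitor of RAS-ERK signalling (Pearson r = 0.98), and Epb41l2, a membrane skeleton gene (r = 0.98). These correlations describe 9 arrays that share their groups.

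Among 21 other genes of leptin receptor signalling, 3 rose, 3 fell and 15 did not pass in mutant against wild type. Jak2, the kinase bound to the receptor, had levels of 8.26, 8.29 and 8.25 in wild type, 7.73, 7.70 and 7.63 in the mutant and 8.07, 8.08 and 8.04 in rescue. The 3 groups did not overlap, and the mutant was lower than wild type by 0.58 on the log2 scale (limma adjusted p = 0.0010). The rise of Jak2 in rescue against mutant (0.38 ± 0.09, adjusted p = 0.0395, limma) was lost when any 1 of the 6 arrays was left out (0.35 to 0.40, adjusted p up to 0.110), with the span trend removed (0.345, adjusted p = 0.0584) and on the 6 arrays alone (adjusted p = 0.0683). Il6st, the shared signalling chain of the IL-6 receptor family, fell by 0.41 in mutant against wild type, and the adaptor gene Grb2 rose by 0.41. The feedback inhibitor Socs3 was at -0.11 ± 0.12 in that comparison, with an adjusted p of 0.538 (limma). Lep itself, the adipocyte hormone, was at a mean of 5.10 in wild type and 5.08 in the mutant.

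Fgf21 had log2 levels of 5.33, 5.46 and 5.19 in wild type, 5.59, 5.88 and 5.49 in the mutant and 5.69, 5.77 and 5.51 in rescue. The wild-type arrays lay below all others, by a gap of 0.03 to the nearest mutant array and 0.04 to the nearest rescue array. The median difference of all genes in mutant against wild type, 0.07, was larger than the first gap. For Fgf21 the difference was 0.32 ± 0.12 in mutant against wild type (limma adjusted p = 0.0946) and 0.33 ± 0.12 in rescue against wild type (adjusted p = 0.229), and neither was called. The former was 0.25 with median centring (adjusted p = 0.197) and 0.21 with the span trend removed (adjusted p = 0.259, limma). It was called in 1 of 14 alternatives, the block for replicate number. Rescue and mutant differed by 0.00 ± 0.12 (95% interval -0.26 to 0.27). Fgf21 was above the olfactory receptor medians but in the dimmest 40% of genes by mean level. The genes most like it over the 9 arrays were Snord8, a small nucleolar RNA gene (r = 0.98), and St3gal2, a sialyltransferase gene (r = 0.96).

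Klb had levels of 7.73, 7.94 and 7.73 in wild type, 7.73, 7.48 and 7.68 in the mutant and 8.05, 7.79 and 8.04 in rescue. The rescue arrays lay above the mutant arrays, and wild type overlapped both. Rescue against mutant was 0.33 ± 0.12 (limma adjusted p = 0.125) and mutant against wild type -0.17 ± 0.12 (adjusted p = 0.343), and neither passed. Klb is on the chromosome that carries Clock, with 64 tested genes between them. The genes most like Klb were Fgd6 (r = 0.95), an exchange factor for CDC42, and Ice1 (r = 0.95), a gene of small nuclear RNA transcription.

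Fgfr4 had levels of 6.67, 6.85 and 6.61 in wild type, 7.02, 7.29 and 7.001 in the mutant and 7.08, 6.66 and 7.24 in rescue. All mutant arrays were above all wild-type arrays, while rescue overlapped both. Mutant against wild type was 0.39 ± 0.14 (limma adjusted p = 0.0790) and was not called; fitted on the 6 arrays of those groups alone it was, with an adjusted p of 0.0453. The genes most like Fgfr4 were the corepressor gene Tle5 (r = 0.95) and the splicing gene Yju2 (r = 0.95).

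The other FGF receptor and co-receptor genes gave no call. Of 5 measured, Fgfr1, Fgfr2, Fgfr3, Fgfrl1 and Kl, 0 were called in any of the 3 comparisons by limma; at an unadjusted p under 0.05 there were 0, 3 and 0. Fgfr2 was at -0.22 ± 0.12 in mutant against wild type, with an adjusted p of 0.218, and Kl, the co-receptor of FGF23, at 0.17 ± 0.10 (adjusted p = 0.262, limma).

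Downstream of the receptors, 1 of 25 measured transducer and feedback genes rose and 5 fell in mutant against wild type. The exchange factor genes Sos2 and Sos1, which load RAS with GTP, fell by 0.81 and 0.52 on the log2 scale, Spred1 by 0.59 and the docking protein gene Gab1 by 0.45 (adjusted p at most 0.00894, limma). Sos2 levels were 9.16, 9.05 and 9.001 in wild type, 8.48, 8.17 and 8.12 in the mutant and 8.92, 8.72 and 8.82 in rescue, with no overlap of the 3 groups. In rescue against mutant Sos2 rose by 0.56 ± 0.12 and Sos1 by 0.40 ± 0.09. The first of these calls was lost without 1 of 4 single arrays (0.49 to 0.57, adjusted p up to 0.0683) and the Sos1 call without any 1 of the 6 (0.37 to 0.42, adjusted p up to 0.0986). The Sos1 call was also lost with the span trend removed (0.359, adjusted p = 0.0527) and on the 6 arrays alone (adjusted p = 0.0590, limma). Spred1 in rescue against mutant was 0.43 ± 0.12, with an adjusted p of 0.0563 (limma).

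The liver genes that FGF15 acts on include Cyp7a1, the rate-limiting enzyme of bile acid synthesis. It had levels of 10.55, 10.67 and 11.00 in wild type, 10.42, 10.18 and 10.22 in the mutant and 8.95, 7.61 and 9.15 in rescue. The rescue arrays lay far below the others: rescue against wild type was -2.17 ± 0.28 (limma adjusted p = 9.18e-04) and rescue against mutant -1.71 ± 0.28 (adjusted p = 0.00824). The latter was not called with a trended and robust prior (adjusted p = 0.0662). Of 7 such genes 2 rose in mutant against wild type, Cyp8b1 by 0.51 and the bile salt pump gene Abcb11 by 0.36; the Cyp8b1 call was lost without wild-type replicate 1 (0.41, adjusted p = 0.0517) and that of Abcb11 without 1 of 5 single arrays (0.34 to 0.38, adjusted p up to 0.0694) or with median centring (0.28, adjusted p = 0.0828).

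**Figure D3:**
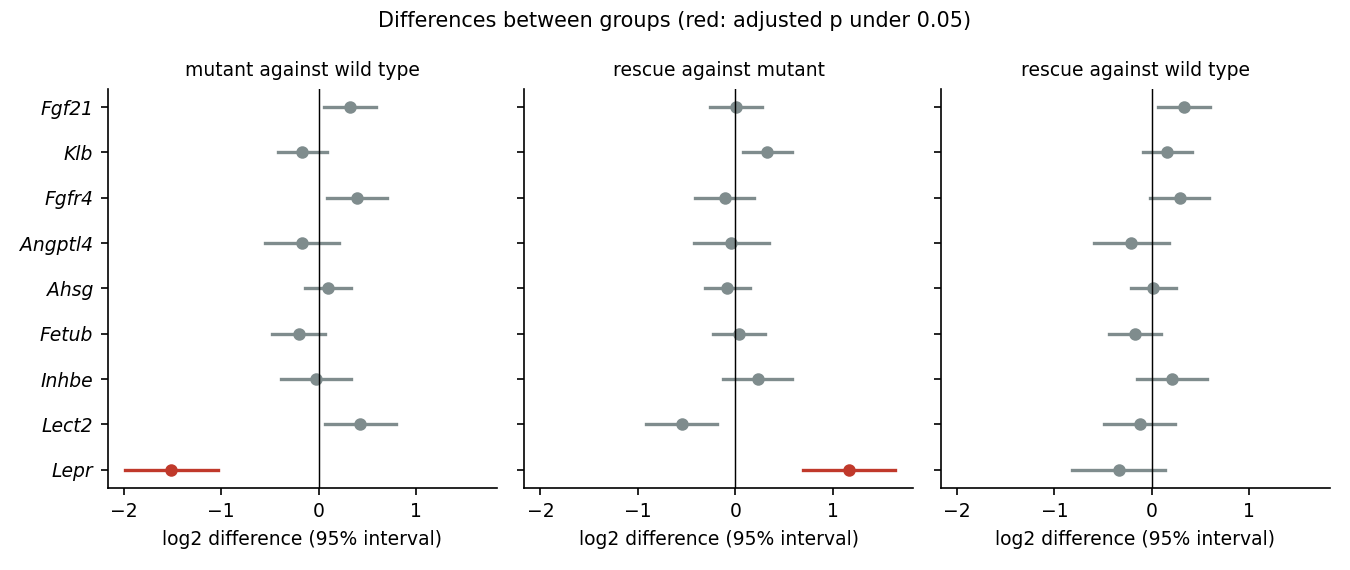
Log2 difference of each of the 9 genes (point) with its 95% interval (line) in the 3 comparisons. Lepr is the gene whose intervals lie farthest from 0, at -1.98 to -1.04 in mutant against wild type and 0.69 to 1.64 in rescue against mutant.

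Of 21 measured transcription factors known to act on Fgf21, 4 rose and 6 fell in mutant against wild type. Nfil3, a repressor, rose by 1.504 ± 0.12 (limma adjusted p = 4.32e-06), from 7.59, 7.76 and 7.69 in wild type to 9.29, 9.03 and 9.23 in the mutant, and rescue lay between at 8.76, 8.52 and 8.42. Atf4, the activator of the integrated stress response whose site is in the Fgf21 and Inhbe windows, was 0.60 ± 0.12 higher in the mutant (adjusted p = 0.00464, limma), at 7.81, 7.98 and 7.66 against 7.09, 7.21 and 7.37. The glucocorticoid receptor gene Nr3c1 fell by 0.63, and Nr1d2, a REV-ERB gene, by 1.18. Calls of Nr1d1 (-0.80) and Mlxipl (0.38) were less steady. That of Nr1d1 was lost without 1 of 5 single arrays and in 4 of 9 other settings (adjusted p up to 0.184, limma). The Mlxipl call was lost without 1 of 4 single arrays and in 4 of 9 other settings (adjusted p up to 0.206, limma). Ppara, the fatty acid sensor that drives Fgf21 in fasting, was at -0.22 ± 0.11 (adjusted p = 0.186, limma).

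Other targets of those factors moved in both directions. Of 23 ATF4 and integrated stress targets 1 rose, 1 fell and 21 did not pass in mutant against wild type. Atf5, a related factor, rose by 0.90 and Asns, the asparagine synthetase, fell by 0.82 (adjusted p at most 0.00791, limma). Of 35 PPARA targets 7 rose and 7 fell. Plin2, a lipid droplet coat gene, rose by 0.74 and Pdk4, the kinase that restrains pyruvate dehydrogenase, by 0.53, while the thioesterase gene Acot3 fell by 1.40. Pdk4 was 0.75 lower in rescue than in the mutant (adjusted p = 0.00719, limma). The medians over the PPARA list and over all genes were both 0.07 in mutant against wild type.

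**Figure D4:**
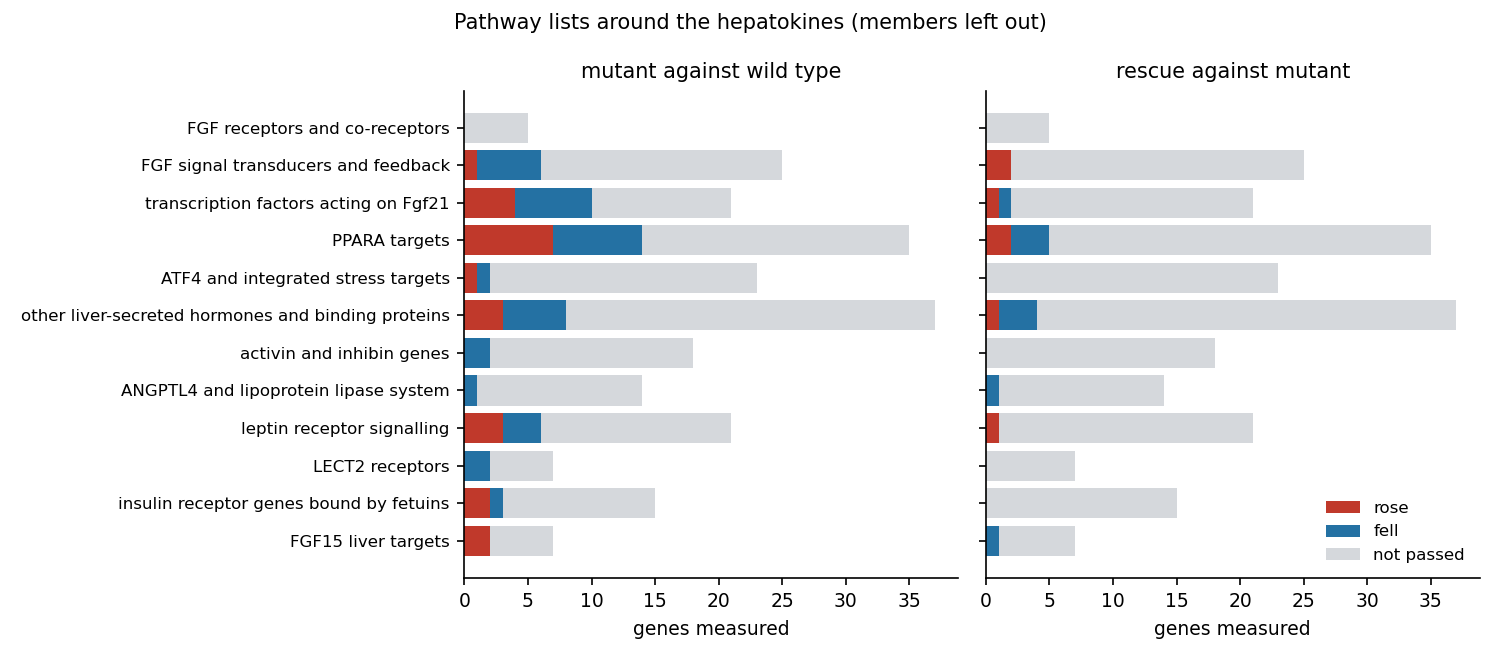
Number of measured genes in each pathway list that rose, fell or did not pass (limma adjusted p under 0.05), in mutant against wild type (left) and rescue against mutant (right), with the 9 genes themselves left out. The FGF receptor list has no call in either panel, and the PPARA targets have 7 rises and 7 falls on the left.

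Angptl4, an inhibitor of lipoprotein lipase and a PPARA target, had levels of 8.33, 8.01 and 8.09 in wild type, 8.15, 7.53 and 8.23 in the mutant and 8.16, 7.61 and 8.03 in rescue. The groups overlapped, and replicate 2 was lowest in each. Mutant against wild type was -0.17 ± 0.18 (95% interval -0.55 to 0.21, limma adjusted p = 0.544) and rescue against mutant -0.04 ± 0.18 (-0.42 to 0.34). Actr8, a chromatin remodelling gene, was most like it (r = 0.95), followed by the actin regulator Cap1 (r = 0.92). Among 14 other genes of the lipase system 1 fell and none rose in mutant against wild type. That gene, the endothelial lipase Lipg, was lower by 0.60, a call lost without 1 of 5 single arrays (-0.62 to -0.57, adjusted p up to 0.0701). The fatty acid receptor gene Cd36 was lower in rescue than in wild type by 0.81 ± 0.16 (adjusted p = 0.0148, limma), a call lost when wild-type replicate 1 (-0.63, adjusted p = 0.0615), wild-type replicate 3 (-0.80, adjusted p = 0.0593) or rescue replicate 1 (-0.69, adjusted p = 0.0669) was left out.

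Lect2, a chemotactic hepatokine that binds the MET receptor, had levels of 9.82, 10.17 and 9.88 in wild type, 10.32, 10.45 and 10.38 in the mutant and 10.21, 9.36 and 9.93 in rescue. All mutant arrays lay above all arrays of the other groups. Mutant against wild type was 0.43 ± 0.17 (limma adjusted p = 0.108) and rescue against mutant -0.55 ± 0.17 (adjusted p = 0.0859), and neither was called. The former was called on the 6 arrays alone (adjusted p = 0.0318) and with quantile normalization repeated (0.51, adjusted p = 0.0429), and the latter without rescue replicate 1 (-0.74, adjusted p = 0.0329). Without rescue replicate 2, the lowest array, the latter was -0.31 (adjusted p = 0.228, limma). Groups without overlap were frequent: 4 of the 9 genes in mutant against wild type, where 35.7% of all genes had none, 3 in rescue against mutant (25.7%) and 1 in rescue against wild type (19.5%). The genes most like Lect2 were Apoh, a plasma glycoprotein gene of hepatocytes (r = 0.98), and the citrate carrier gene Slc25a1 (r = 0.96). Of 7 LECT2 receptor genes and their partners, 2 fell in mutant against wild type. Met fell by 0.84, from 10.14, 10.03 and 10.15 to 9.26, 9.29 and 9.26, and Tek, an endothelial receptor that also counts among the endothelial markers, by 0.59.

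The fetuins lie next to each other in the reference gene order and gave no call. Ahsg, which encodes fetuin-A, an inhibitor of the insulin receptor, had levels of 12.51, 12.43 and 12.31 in wild type, 12.41, 12.61 and 12.52 in the mutant and 12.50, 12.29 and 12.51 in rescue. Its mutant against wild-type difference was 0.09 ± 0.11 (95% interval -0.14 to 0.33, limma adjusted p = 0.585). Fetub, which encodes fetuin-B, an inhibitor of astacin proteases, had levels of 10.79, 10.89 and 10.67 in wild type, 10.38, 10.80 and 10.55 in the mutant and 10.48, 10.59 and 10.76 in rescue. Its difference was -0.21 ± 0.13 (-0.48 to 0.06, adjusted p = 0.278). Both genes overlapped between all groups.

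Over the 9 arrays Ahsg was most like Glmp, a lysosomal membrane gene (r = 0.96), and Pip5k1c, a lipid kinase gene (r = 0.95). Fetub was most like the translation regulator gene Eif4ebp2 (r = 0.98) and the semaphorin receptor gene Plxnd1 (r = 0.96). Of 15 other genes of insulin receptor binding and the fetuin family, 2 rose and 1 fell in mutant against wild type. Asgr1 and Asgr2, the subunits of the asialoglycoprotein receptor, rose by 0.76 and 0.64. Insr, the insulin receptor, fell by 0.48 (adjusted p = 0.00387, limma), and with the mean of its probe sets in place of the brightest the difference was -0.30 (adjusted p = 0.0558).

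Inhbe, which encodes activin E, a hepatokine that restrains lipolysis in fat tissue, had levels of 7.57, 7.77 and 7.55 in wild type, 7.30, 7.86 and 7.65 in the mutant and 8.08, 7.44 and 7.98 in rescue. The groups overlapped, and the range within the mutant and within rescue was wider than the distance between any of the group means. Mutant against wild type was -0.03 ± 0.17 (95% interval -0.38 to 0.33, limma adjusted p = 0.933) and rescue against mutant 0.23 ± 0.17 (-0.13 to 0.59, adjusted p = 0.453), which was 0.078 without mutant replicate 1 and 0.42 without rescue replicate 2. It was most like Prrc2a (r = 0.91) and the hepatokine gene Angptl8 (r = 0.91) over the 9 arrays. Angptl8 had levels of 7.65, 8.49 and 7.90 in wild type, 7.48, 8.59 and 8.36 in the mutant and 8.68, 7.64 and 8.42 in rescue. Of 18 other activin and inhibin genes 2 fell and none rose in mutant against wild type, Smad2 by 0.59 and the activin receptor gene Acvr2a by 0.46.

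Among 37 other liver-secreted hormones and binding proteins, 3 rose and 5 fell in mutant against wild type, 1 rose and 3 fell in rescue against mutant, and 4 fell in rescue against wild type. Nrg4, a ligand of ErbB receptors, fell in the mutant from 8.44, 7.84 and 8.16 to 6.15, 6.07 and 6.04, and was 6.64, 6.50 and 6.43 in rescue. Rescue against wild type was -1.62 ± 0.13 (limma adjusted p = 2.26e-05), with no overlap. Bmp2, an endothelial hormone that raises hepcidin and is also among the endothelial markers, fell by 1.18 in the mutant. Igfals, the acid-labile subunit that holds IGF1 in plasma, was 7.50, 7.68 and 7.65 in wild type, 7.60, 7.59 and 7.70 in the mutant and 7.08, 7.09 and 7.13 in rescue. Its rescue arrays lay below all others, by 0.53 relative to the mutant (adjusted p = 0.0125, limma). Igf1 was at -0.16 ± 0.13 in mutant against wild type (adjusted p = 0.426, limma).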

How the data were processed

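The deposited values were log2 expression values per probe set, made by the authors with RMA in Affymetrix Expression Console, per the submitters' processing notes. Software versions: not given in the sources used here. This method corrects background, forces a common distribution and summarises probes, so it can hide a global shift. Of 35556 probe sets, 21789 had 1 gene symbol, 1621 several and 12146 none. The probe set of highest mean was kept per gene, which left 19938 genes; the 9 genes described here had 1 each. The array number limits the precision. The p-values set a difference against the spread between animals, pooled over the 3 groups and moderated towards that of all genes.

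All 9 arrays were fitted in 1 model with limma 3.58.1 in R 4.3.3 (6 residual and 8.475 prior degrees of freedom), with 3 contrasts and Benjamini-Hochberg adjustment over all genes. Figures used matplotlib 3.10.9. Simulated data had 19938 genes with independent normal noise, 200 of them changed. There the fit called 52% of the genes given a log2 change of 0.5 in mutant against wild type, 40% in rescue against mutant and 46% for rescue and wild type. With a change of 1 it called 99%, 100% and 100%. In each real comparison more genes were called than were changed in the simulation, so these rates need not hold for the real data.

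The genes, the 12 pathway and 10 marker lists (347 of 394 symbols measured) and the alternatives were chosen with earlier results of these data known. Named list genes were up to 4 called genes of smallest p per list and comparison; likeness was Pearson's r among 11435 genes outside the dimmest 40%, predicted genes left out. Genes without a call, and a few cited beside a result, were named for their role. Other settings tried were median centring, a second quantile normalization, array weights, a trended and robust prior, a block for replicate number, only the 6 arrays compared, the mean of probe sets, no genes from the dimmest 40%, removal of the span trend by loess, and each array left out.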

Additional observations from a re-analysis of the deposited data

How the results depend on the processing

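The Lepr calls in mutant against wild type and in rescue against mutant were kept in all 15 alternatives run for each, with differences of -1.66 to -1.31 and 0.89 to 1.44. The number of the 9 genes called in mutant against wild type, 1 as reported, was 2 with the replicate block (Fgf21 added, adjusted p = 0.0382, limma), 2 with quantile normalization repeated, 3 with the 6 arrays alone and 1 to 1 with an array left out. In rescue against mutant it was 1 to 2 with an array left out, and in rescue against wild type 0 throughout. The labels do not say that replicate numbers mark a shared litter or day. Same-numbered arrays of different groups correlated by -0.16 to 0.28 in their deviations from group means, with 6 of 9 pairs over 0.1, against 3 of 18 differently numbered pairs (-0.33 to 0.27), and 7 of 9 arrays were closest to their own number. Since not every pair was over 0.1, the numbers were not taken as pairs, and the closeness of same-numbered arrays is a hint from the data, not the design. The block changed no other call among the 9 genes.

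Uncalled differences near 0 changed sign. Inhbe in mutant against wild type was 0.022 with quantile normalization repeated, and -0.16 to 0.13 with an array left out. Angptl4 in rescue against mutant was 0.021 with median centring and 0.040 with the span trend removed, and Fgfr4 there was 0.032 with array weights. Ahsg in rescue against wild type was -0.0126 with quantile normalization repeated, -0.0044 with median centring and -0.0038 with the span trend removed. With an array left out, the ranges were -0.30 to 0.049 for Angptl4 in mutant against wild type; -0.079 to 0.12 for Fgf21, -0.23 to 0.057 for Fgfr4, -0.26 to 0.12 for Angptl4 and -0.066 to 0.15 for Fetub in rescue against mutant; and -0.043 to 0.086 for Ahsg and -0.31 to 0.11 for Lect2 in rescue against wild type. Some differences kept their sign with an array left out but moved by over 1.5 times. In mutant against wild type they were Fgf21 (0.21 to 0.41), Klb (-0.22 to -0.093), Ahsg (0.038 to 0.15) and Fetub (-0.32 to -0.11). In rescue against mutant they were Ahsg (-0.13 to -0.0081), Inhbe (0.078 to 0.42) and Lect2 (-0.74 to -0.31). In rescue against wild type they were Klb (0.11 to 0.25), Fgfr4 (0.16 to 0.45), Angptl4 (-0.32 to -0.049), Fetub (-0.25 to -0.11), Inhbe (0.080 to 0.40) and Lepr (-0.63 to -0.069). Other settings went beyond these ranges for Klb and Ahsg. With median centring Klb was -0.25 and Ahsg 0.016 in mutant against wild type. With the span trend removed Ahsg was 0.00083 in mutant against wild type and -0.0047 in rescue against mutant. The cause was not tested.

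The background moved more. Genes called were 3068 in mutant against wild type (1270 higher, 1798 lower; 610 and 2272 with median centring), and 1695 to 2469 with an array left out, fewest without wild-type replicate 3. In rescue against mutant they were 759 (520 higher, 239 lower; 780 and 126 with median centring, 745 and 589 with array weights), 1178 without the dimmest 40% of genes, 1210 with a trended and robust prior, 1334 with array weights, and 200 to 546 with an array left out, fewest without Clock mutant replicate 1. In rescue against wild type they were 454, with 711 without the dimmest 40% of genes, 704 with a trended and robust prior, and 233 to 402 with an array left out, fewest without wild-type replicate 3.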
